A study of Caenorhabditis elegans with 16 samples.

Results

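H3K9me2 was mapped by chromatin immunoprecipitation sequencing (ChIP-seq) in early Caenorhabditis elegans embryos carrying set-25(n5021), and is described here as enrichment of the ChIP over its own input. Both columns were scaled to their total counts, and windows of 500 bp were kept where each of the 4 input columns of the table held at least 20 counts. This left 191140 of 198087 windows. The labels give 4 of the 16 samples to this ChIP and its input, with 2 biological replicates each, and the table analysed here holds 1 column for each. The other 12 samples are H3K9me3 in set-25(n5021) and both marks in met-2(n4256), again with inputs. All embryos were collected before the bean stage, 60 to 65 h after L1 synchronisation, and the titles give 20 °C. No wild-type sample is labelled, so the values show where H3K9me2 stood in embryos with this set-25 allele and not how much was kept or lost. With 1 column per group there was no spread between replicates and no test, and each interval below is a 95% interval of counting error only.

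Dimethylation of lysine 9 on histone H3 marks silent chromatin, in worms above all the repeat-rich arms of the autosomes, which are held at the nuclear envelope. MET-2, the worm counterpart of mammalian SETDB1, makes the mono- and dimethylated forms. SET-25 is needed in embryos for the trimethylated form. The met-2 libraries serve below as a readout at the same windows in the other mutant.

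The H3K9me2 ChIP of set-25 held 19777605 counts and its input 44992666, with medians of 41 and 241 counts per kept window. A gap in coverage lay on chromosome III, which carries both mutated genes. From 13287501 to 13289000 the input held 4 counts against 599.55 expected from the flanks and the ChIP 6 against 340.95, while the H3K9me2 input of met-2 held 376 of 423.15. A further gap on V from 5080501 to 5083000, with 0 counts in the input where the flanks gave 606 and 0 of 117.5 in the ChIP, was absent from the H3K9me2 input of met-2, which held 1066 of 526.5, and from the H3K9me3 input labelled set-25, which held 717 of 561.75. The H3K9me3 ChIP labelled set-25 held 1431 counts in the gap on III, against 1029.9 expected, which goes against its label, and it is called the library labelled set-25 throughout. Its own input did lack that stretch, with 2 counts where 806.25 were expected, so on III only the ChIP conflicts with the label.

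A minority of windows held most of the ChIP counts, in part by definition, since they were chosen on those counts. Enrichment above 2-fold, a log2 ratio above 1, was found in 19606 of the kept windows, which is 10.3%. These windows held 57.4% of all ChIP counts and 8.95% of the input counts. The lower counting bound of the log2 ratio was above 1 in 16259 of them (82.9%). It was above 0 in 100%, which the threshold and the floor on input counts largely ensure, so that share is no check on the set. The median window of the enriched set held 329 ChIP counts and the median of the other windows 38, so the enriched windows are also the more precisely measured ones. At a log2 threshold of 2 the share was 4.81%, and with values centred on the median 23.8%. Because so many counts fell on few windows, scaling to the total pushed the ordinary window below its input: the median log2 enrichment was -1.33 over all kept windows, -0.47 on arms, -1.70 in centres and -1.40 on X. Arms are here the outer 25% of each autosome at either end, and centres the rest.

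A single stretch weighed on this scale. In the last 10 kb of chromosome I, 9 windows with inputs averaging 81.8 times the median held 7.06% of all H3K9me2 ChIP counts of set-25 and 0.391% of its input counts, a log2 enrichment of 4.17. In met-2 the same windows held 0.289% of the H3K9me2 ChIP and 0.209% of the input, an enrichment of 0.47. Leaving the last 10 kb of I out of the totals, an alternative chosen after the data were seen, raised every log2 value by 0.10 and left 11.0% of windows enriched.

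The contrast between arms and centres grew with the level. Above a log2 ratio of 1, 22.1% of arm windows and 1.51% of centre windows were enriched, a ratio of 14.6. Above 2 (4.81% of all kept windows) the shares were 10.6% and 0.453%, and above 4 (0.557% of all) they were 1.22% and 0.0337%, a ratio of 36.4. Above 5, a 32-fold enrichment, 145 windows (0.0759% of those kept) remained, and here the ratio was lower again, 19.1, since 7 such windows lay in centres. The left arm of III held 65 of the 145 and the right arm of V held 31.

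Along each autosome the mark formed 2 broad shoulders that started some way in from the ends. The peak lay at 5 to 10% of the length on the left of I, where 43.0% of windows were enriched, at 15 to 20% on the left of II (39.0%), at 10 to 15% on the left of III (67.9%) and of IV (37.2%), and at 90 to 95% on the right of V (48.4%). The outermost 5% held less than the peak of its arm on all 10 arms except the left arm of V, where the outermost 5% was itself the highest at 20.8%. On the inner side the share dropped on all 5 left arms. Between 20 and 25% of the length, 49.3% of windows on III, 30.2% on II, 14.7% on I, 9.46% on IV and 6.77% on V were enriched, and in the next 5% the shares were 5.20%, 6.23%, 2.22%, 1.82% and 1.29% in the same order. On the right of I the raised share began inside the nominal centre, with 17.3% between 70 and 75% of the length, whereas on the right of V it began only beyond 80%, with 6.13% in the 5% before and 41.9% after.

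**Figure D1:**
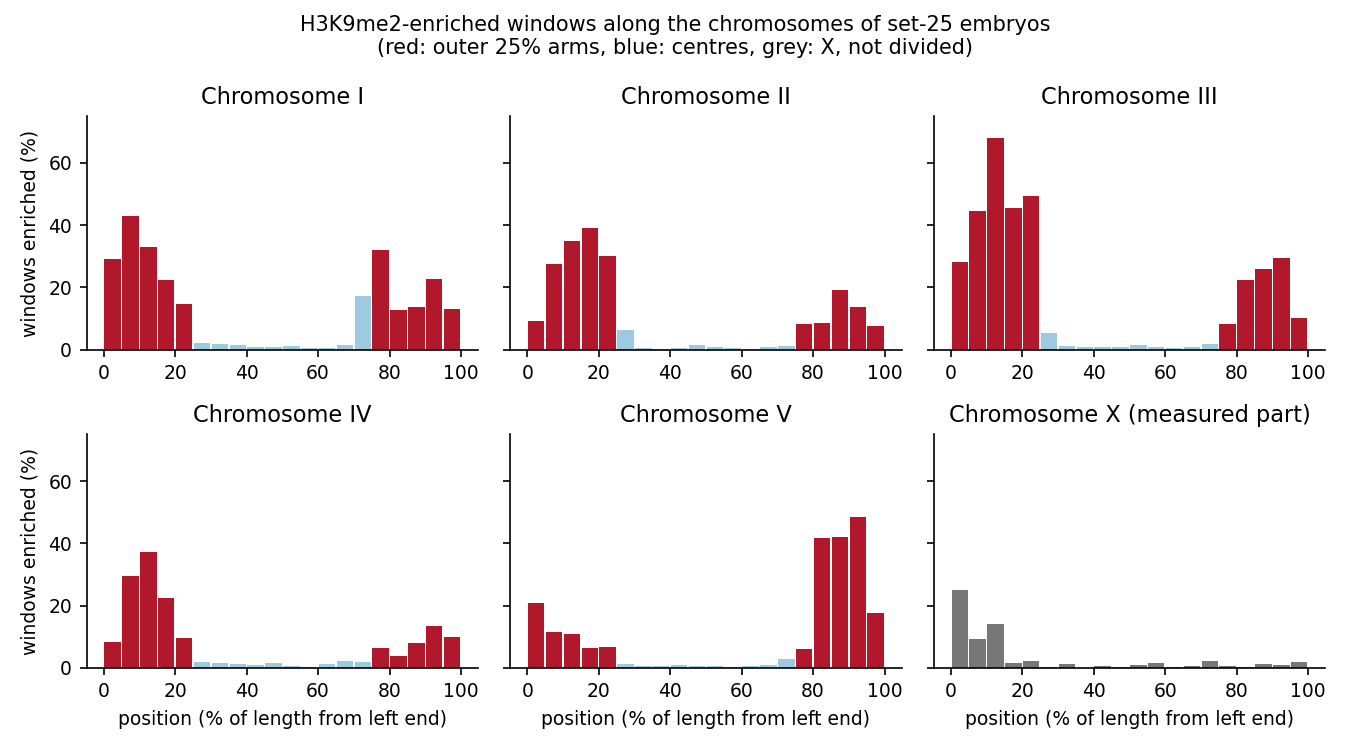
Share of kept 500 bp windows with H3K9me2 enrichment above 2-fold in set-25 embryos (vertical axis, percent) in 20 equal parts of each chromosome (horizontal axis, percent of length from the left end; X as far as measured). Bars are red for arms, blue for centres and grey for X; the highest bar, 67.9%, stands on the left arm of III.

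Measured from the chromosome ends, 90% of the enriched windows left of the midpoint lay within 3.21 Mb on III, 3.37 Mb on I, 3.53 Mb on II, 4.04 Mb on IV and 5.12 Mb on V. On the right the distances were 2.96 Mb on III, 3.31 Mb on II, 3.88 Mb on V, 4.01 Mb on I and 5.16 Mb on IV. As a share of chromosome length these ran from 18.5% on the right of V to 29.5% on the right of IV. The last 100 kb differed from end to end. Enriched windows made up 67.3% at the left end of X, 41.2% at the left end of III, 22.1% at the right end of II and 20.1% at the left end of I, but 2.04% at the left end of II, 2.69% at the right end of III and 0% of 197 windows at the right end of IV.

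The enriched windows fell into 6516 unbroken runs, most of them short. Single windows made up 2696 runs, and 2404 runs held 2 to 3 windows, 1084 held 4 to 9, 264 held 10 to 19 and 68 held 20 or more. Short and long runs differed in where they lay. Of the autosomal runs, 18.8% of the single windows were in centres, 8.82% of those of 2 to 3 windows, 4.13% of those of 4 to 9, 1.18% of those of 10 to 19 (3 runs) and 1.67% of those of 20 or more (1 run). They also differed in level, with a median log2 enrichment of 1.41 for single windows, 1.82, 2.18, 2.66 and 3.16 for the longer classes in turn. The threshold that defines a run favours this order, so it is given as a description. Input per window was alike in all classes, at 0.811 to 0.852 of the median of kept windows.

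**Figure D2:**
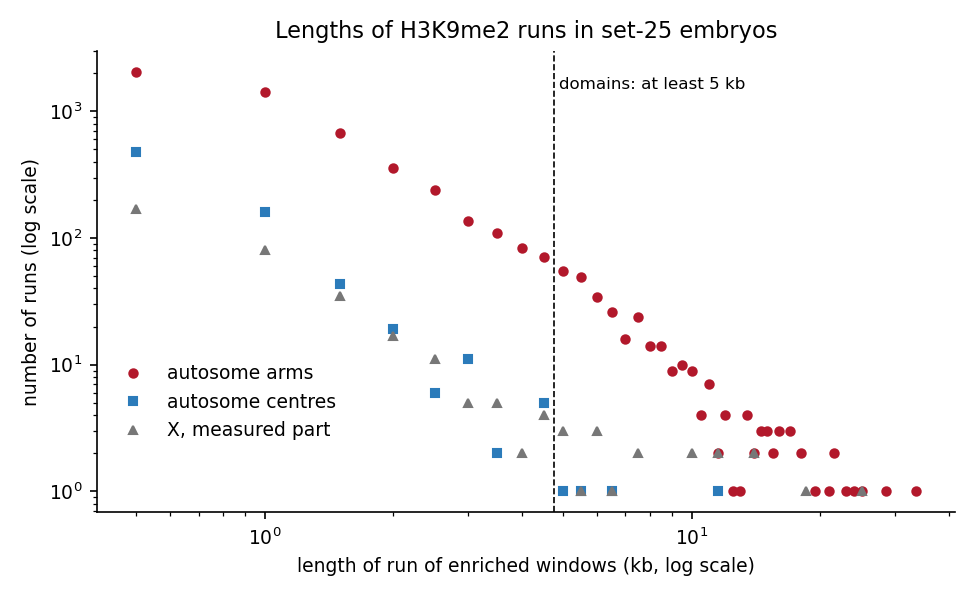
Number of runs of adjacent enriched windows (vertical axis, log scale) by run length (horizontal axis, kb, log scale) on autosome arms, in autosome centres and on the measured part of X. The dashed line marks 5 kb, beyond which 310 runs lay on arms, 4 in centres and 18 on X.

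Runs of at least 10 windows, or 5 kb, are called domains. The 332 domains covered 2.68 Mb and held 27.3% of the enriched windows, 27.8% of all ChIP counts and 2.80% of the input counts. Their median length was 6.5 kb with quartiles of 5.5 and 9 kb, 68 measured at least 10 kb and 9 at least 20 kb. Their number follows the definition, with 531 and 115 at log2 thresholds of 0.5 and 2, and 1003 when values were centred on the median. Length and level were only loosely tied over the domains (Spearman rho 0.19, Pearson r 0.21, across 332 domains that share 1 library), and 132 domains exceeded a log2 enrichment of 3 and 27 exceeded 4. Summed over a domain, counts were ample: the lowest held 1829 ChIP counts, and the counting interval of the log2 value was at most 0.12 to either side.

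Arms with the same share of enriched windows were built differently. The left arms of I and II had 28.4% and 28.1% of windows enriched, but on I these fell into 725 runs of 2.85 windows on average, with 17.8% of them in domains, and on II into 559 runs of 3.64 windows with 37.3% in domains. The right arm of III (19.2% enriched) and the right arm of I (18.7%) had 8 and 19 domains. The right arm of II was the extreme case, with 11.4% of windows enriched in 386 runs and a single domain of 8 kb. The left arm of V, at 11.3%, had 13. The left arm of III stood at the other end, with runs of 5.38 windows on average, 51.8% of its enriched windows in domains and domains over 23.6% of its length. The right arm of V followed with 11.7% of its length in 74 domains and the left arm of II with 9.92% in 47.

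Each autosome had an arm with more domains than its partner. The left arm held 89 against 8 on III, 47 against 1 on II, 30 against 19 on I and 23 against 6 on IV, while on V the right arm held 74 against 13. The same arm had more domains in all 16 alternative settings on II, III, IV and V. On I it did so in 13 of 16, and the right arm had more at a log2 threshold of 2 (4 against 10), with the input of the H3K9me3 experiment (10 against 12) and for runs of at least 20 windows (0 against 2).

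The longest domain, on the left arm of III, spanned 33.5 kb between 2913001 and 2946500, with 59617 ChIP and 13647 input counts, a 9.94-fold enrichment (log2 3.31, interval 3.29 to 3.34). Single windows in it ranged from 1.58 to 4.54. The next, 28.5 kb on the right arm of V from 19011501 to 19040000, reached 13.8-fold (log2 3.79, 3.76 to 3.82) and was split from its neighbour by a single window. Then came 25 kb on III from 1866001 to 1891000 at 12.9-fold (3.69, 3.66 to 3.72), 25 kb on X from 1654501 to 1679500 at 7.37-fold (2.88, 2.85 to 2.91) and 24 kb on III from 1669501 to 1693500 at 8.53-fold (3.09, 3.06 to 3.12). All 5 were above the domain median of 2.73, and none was among the 5 highest. The domain ending at 1891000 was split by a single window from one of the 5 highest, which starts at 1891501.

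The domains with the highest enrichment were between 5 and 9.5 kb long. On the right arm of V, a domain from 19912001 to 19917000 reached 29.7-fold (log2 4.89, 4.83 to 4.96), with windows between 2.53 and 5.50, and one from 18538501 to 18544500 reached 27.8-fold (4.80, 4.73 to 4.86). The other 3 lay on the left arm of III, with further domains between them. They reached 21.0-fold (log2 4.40) between 1891501 and 1901000, 23.7-fold (4.57) between 1936001 and 1943500, and 21.3-fold (4.41) between 1954001 and 1959500. In met-2 these 5 domains stood between -0.19 and 0.19 for H3K9me2 and between -0.58 and -0.34 for H3K9me3. The medians of fixed 5 kb stretches in the same libraries were -0.01 and -0.41.

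Elsewhere the longest domain of each part was shorter. It measured 19.5 kb on the left arm of II, from 2175501 to 2195000, at 12.0-fold (3.59, 3.55 to 3.62), and 15.5 kb between 1180001 and 1195500 on the left of IV, at 10.5-fold (3.39, 3.35 to 3.42). On the right arms of III, IV and II it was 9.5 kb from 11931501 to 11941000 (5.11-fold, 2.35), 8.5 kb from 16288001 to 16296500 (3.10-fold, 1.63) and 8 kb from 13508001 to 13516000 (4.69-fold, 2.23). The last, the only domain of its arm, stood at 0.80 with the input of the H3K9me3 experiment, which left that arm with no domain. The longest domain was the lowest of the 6 on the right arm of IV, where the median was 2.36 and the highest 3.31. On the right arm of III, with a median of 2.05, it was the highest of 8. Another domain there, also at 2.35, lay within its interval of 2.29 to 2.41. That makes the rank a tie within counting error. On the left arm of V the longest domain was 11 kb from 5183501 to 5194500 at 5.92-fold (2.57, 2.51 to 2.62). Centres of II and III held no domain.

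On X the domains sat in few places. Of its 18 domains, 10 ended within 500 kb of the left end, where 39.8% of windows were enriched, and together they covered 84.5 kb. Another 6 lay between 1.5 and 1.8 Mb, among them the domain of 25 kb. The other 2 lay farther in, from 3747001 to 3752000 and from 9192001 to 9202000. Of all enriched windows left of the midpoint of the measured X, 90% lay within 3.23 Mb of the end.

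Many domains lay close to another, in part by definition, since 1 window at or below 1 or below the input floor splits a stretch. From the end of a domain to the start of the next on its chromosome the median distance was 24.5 kb (326 distances, quartiles 7.63 and 75.1 kb); 29.1% of distances were at most 10 kb and 80.1% at most 100 kb, while the longest, across the centre of II from 3800500 to 13508001, reached 9.71 Mb. Of the 326 distances, 35 were at most 1 kb and 18 were a single window, which in 5 cases was below the input floor. Chained at 10 kb or less, 153 domains (46.1%) formed 58 clusters and 179 stood alone. Clustering beyond the crowding of domains on some arms was not tested. The largest cluster held 10 domains in 114 kb between 1474001 and 1588000 on III, with 75% of its span in domains at a log2 enrichment of 3.92. The median distance was 13.75 kb on the left arm of III, which had the most domains, 25.5 kb on the left arm of I and the right arm of V, 31.5 kb on the left arm of II and 280.5 kb on the left arm of V. The median distance did not simply follow the number of domains per Mb of a whole part. X had 1.09 per Mb over its whole measured length and a median of 19 kb. Its domains were crowded, however, with 10 of 18 ending within 500 kb of the left end and 6 between 1.5 and 1.8 Mb. The right arm of IV, with 1.37 per Mb, had 31 kb over 5 distances.

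The stretches between close domains, pooled over chromosomes, had a higher median than arm windows outside domains. Levels differ by arm: over all kept windows the median was 0.84 for III left and -1.36 for IV right. Some gaps lay on X. Gaps were not compared with windows of their own arm, so a difference within arms was not tested. In gaps of at most 10 kb the 560 kept windows had a median of 0.60 and in gaps of at most 5 kb the 206 windows had 0.46, against -0.59 for all arm windows outside domains. The shares of enriched windows were 33.75%, 19.4% and 16.9% in the same order, so in the shortest gaps the share was close to that of the other arm windows. Each gap starts and ends with a window at or below 1 or below the input floor, which weighs most in short gaps. A count of gaps depends on the input floor, since a window below it ends a run: 104 of the 664 domain edges touched such a window. Crossing these windows, an alternative added after the data were seen, gave 375 domains and a median distance of 24 kb.

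The strongest 500 kb stretches showed the same concentration. Of 199 such bins, 5 had more than 50% of windows enriched and 93 had under 2%. The 5 were the 3 adjacent bins from 1000001 to 2500000 on III, with 62.7%, 74.5% and 53.1%, and those starting at 17000001 (51.2%) and 19000001 (52.1%) on V.

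Enrichment of neighbouring windows was related, and the relation weakened with distance. Pooled over the 10 arms, the Pearson r between windows of the set-25 H3K9me2 track was 0.79 at 0.5 kb (77256 pairs), 0.38 at 5 kb, 0.28 at 20 kb, 0.23 at 100 kb and 0.15 at 500 kb. The same library in centres gave 0.53, 0.18, 0.12, 0.095 and 0.022. Near neighbours share sequenced fragments, and all windows share the 2 libraries, so these values are descriptive. Arms differ in their mean, which raises a pooled r at long range. With the mean of each arm taken out, an alternative added after the data were seen, r for H3K9me2 of set-25 was 0.76, 0.30, 0.18, 0.13 and 0.03, and over single arms it ran from 0.06 to 0.26 at 20 kb and from -0.05 to 0.08 at 500 kb. The pooled tracks of met-2 had lower values on arms: at 20 kb r was 0.084 for H3K9me2 and 0.067 for H3K9me3, and with arm means taken out 0.045 and 0.051. In centres the H3K9me3 track of met-2 had the higher r at short range, 0.76 at 0.5 kb and 0.35 at 5 kb, and 0.10 at 20 kb.

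**Figure D3:**
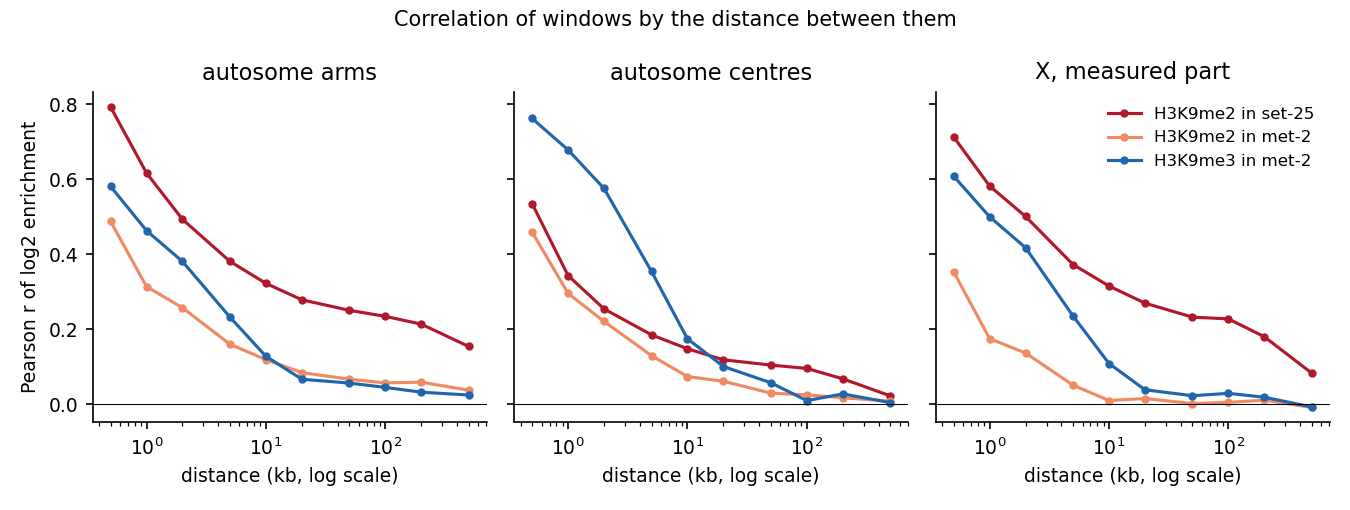
Pearson r of log2 enrichment (vertical axis) between windows a given distance apart (horizontal axis, kb, log scale) within the same chromosome part, for 3 libraries, pooled over arms or centres with differences between arm means left in. On arms the H3K9me2 track of set-25 lies above both met-2 tracks from 0.5 kb (0.79) to 500 kb (0.15).

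The profile across domain edges was steep, in part by definition. The outermost window of a domain had a median log2 enrichment of 1.82 and the next one inward 2.43. The adjacent outer window, which must lie at or below 1 by definition, stood at 0.49. The window beyond it had a median of 0.40, with 29.4% enriched; adjacent windows resemble each other, so the definition lowers this value too. The median was 0.81 at 1.5 kb, 1.06 at 2 kb, with 50.9% enriched, and 0.75 at 10 kb. The H3K9me2 track of met-2, which did not define the edges, had medians of -0.16 and -0.13 in the first 2 outer windows, between -0.04 and 0.03 from 1.5 to 20 kb outside and 0.09 to 0.23 inside. H3K9me3 of met-2 was flat across the edge, at -0.31 just outside and -0.34 in the outermost domain window. The input of set-25 H3K9me2 itself was at 0.884 of the median in the adjacent outer window and 0.817 in the outermost domain window, a difference whose part in the profile was not tested.

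**Figure D4:**
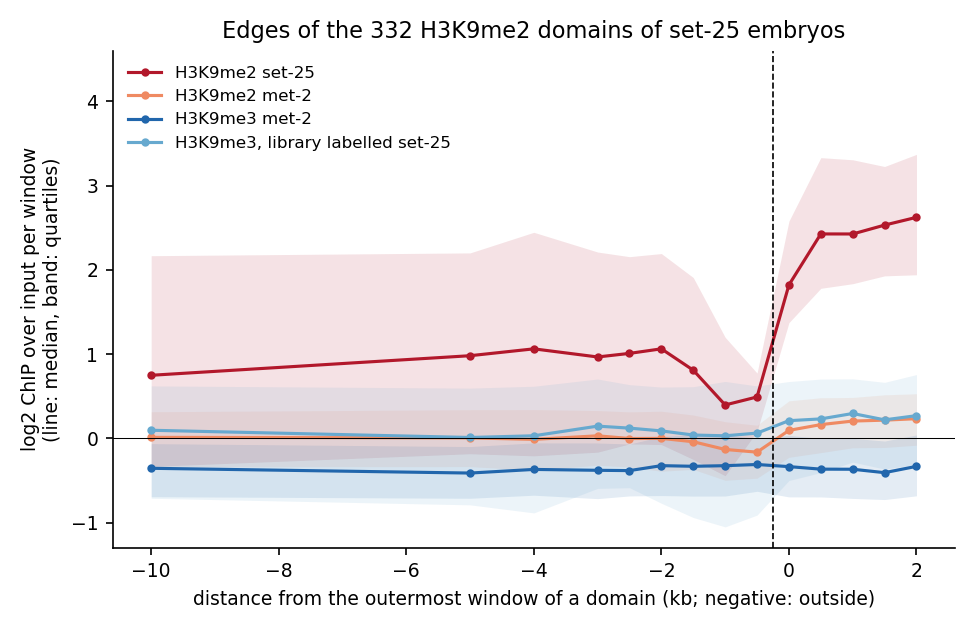
Log2 enrichment per window (vertical axis; lines are medians, bands quartiles) by distance from the outermost window of the 332 domains (horizontal axis, kb, negative outside; both edges pooled). The set-25 H3K9me2 median falls from 2.43 inside to 0.40 at 1 kb outside and is 1.06 at 2 kb.

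A minority of the set-25 H3K9me2 domains coincided with H3K9me3 of met-2, which was itself rare over the genome. H3K9me3 of met-2 exceeded 1 in 31 of the 332 domains (9.34%), where fixed stretches of 5 kb exceeded 1 at a rate of 4.03% over the genome. (For H3K9me2 of set-25 itself, 9.91% of these stretches did.) On arms the figures were 26 of 310 domains (8.39%) against 2.28% of stretches. The share rose with run length, from 3.23% of single windows and 3.20% of runs of 2 to 3 windows, against 4.1% of all kept windows, to 3.97% of runs of 4 to 9, 7.58% of runs of 10 to 19 windows and 16.2% of the 68 longest runs. With the input of the H3K9me3 experiment the share over domains was 4.72%, so the excess over the stretches depends on the input. No test was made of these differences, and counting error in the shorter runs also affects them. The median H3K9me3 of met-2 over all domains, -0.44, was close to that of the stretches, -0.41.

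The 31 domains were unevenly spread: 11 were on the right arm of V, 5 on its left arm, 3 on the left arm of I and 2 on the left arm of III, which held 89 domains in all. They included both domains in the centres of IV and V and 3 of the 18 on X, among these the 2 that lay farthest in. The domain in the centre of IV, 11.5 kb from 11974501 to 11986000, had H3K9me2 of set-25 at 1.49 (1.44 to 1.54) with every window between 1.02 and 1.95, H3K9me3 of met-2 at 3.17 and H3K9me2 of met-2 at 1.24 (1.19 to 1.30). That in the centre of V, from 14760501 to 14765500, had 1.44, 3.08 and 0.95 in the same order, the one on X from 9192001 had 1.79, 3.18 and 1.25, and the one from 3747001 had 2.61, 2.80 and 0.90. The remaining 2 centre domains lay on I, in the raised zone between 70 and 75% of its length. The call of the 4 domains on IV, V and X given here rested on the input used. With the input of the H3K9me3 experiment the domain on IV stood at 0.67, that on V at 0.33, and those on X from 9192001 and 3747001 at 0.02 and 0.49, all below the threshold. With the H3K9me2 input of met-2 those on IV and V stood at 1.89 and 1.70, and the 2 on X at 2.40 and 3.23.

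Over the 31 domains H3K9me2 of set-25 had a median of 2.35 (quartiles 1.84 and 3.05), against 2.76 (2.24 and 3.39) over the other 301. H3K9me2 of met-2 had medians of 0.75 and 0.15 in the 2 sets. It exceeded 1 in 7 domains, and all 7 were among the 31, where fixed 5 kb stretches exceeded 1 at a rate of 0.241%. The domain highest in both met-2 marks, on V from 17133501 to 17144500, had H3K9me2 of set-25 at 3.34, H3K9me3 of met-2 at 3.58 and H3K9me2 of met-2 at 1.35. With domains called on the input of the H3K9me3 experiment, 11 of 233 exceeded 1 for H3K9me3 of met-2. Read with that input, 22 of the 31 domains (71.0%) and 279 of the other 301 (92.7%) stayed above 1 for H3K9me2 of set-25. In the library labelled set-25, H3K9me3 had medians of 0.34 and 0.33 over the 2 sets, and 3 domains exceeded 1, none of the 31 among them, against 0.304% of stretches.

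**Figure D5:**
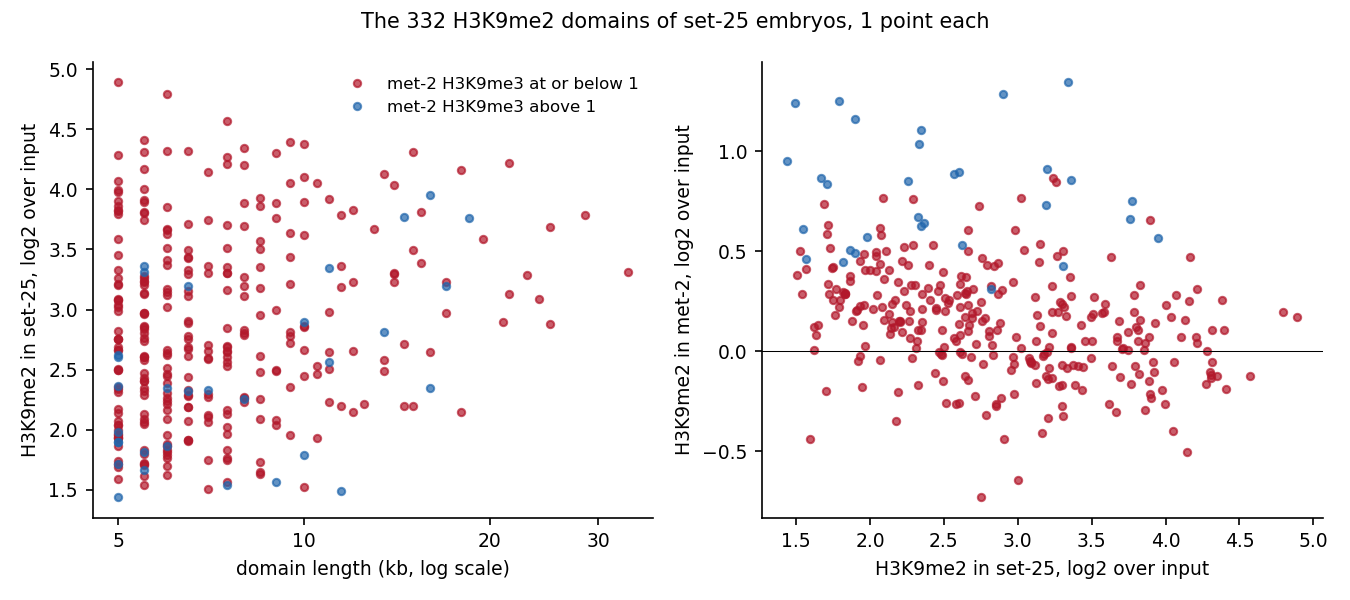
The 332 H3K9me2 domains of set-25, 1 point each, by length (left panel, kb, log scale) and H3K9me2 of set-25 (log2 over input), and by H3K9me2 of set-25 and of met-2 (right panel, log2 over input). Blue points are the 31 domains above 1 for H3K9me3 of met-2, and their H3K9me2 of met-2 has a median of 0.75, against 0.15 for the red points.

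Some windows outside the arms were very strong without lying in a domain. Of all 145 windows above a log2 ratio of 5, 89 lay in domains. The windows above a log2 ratio of 5 in centres and on X were chosen after their values were seen. Leaving out I there were 13, and none lay in a run of more than 6 windows. Those on X from 110001 to 181500 lay between domains near its left end. The strongest on an autosome was on IV from 11071001 to 11071500, at 6.13 with 24998 ChIP and 806 input counts, inside a run of 6 windows. A single window on II from 4309001 to 4309500 reached 6.09 (3635 and 117 counts), one on V from 12510001 to 12510500 reached 5.80 in a run of 3 (15537 and 631), and a run of 2 windows on X peaked from 3631501 to 3632000 at 6.20 (13830 and 425). These 4 are the highest outside the arms on their chromosomes, and H3K9me3 of met-2 was between -1.46 and -1.33 in them, where the medians were -0.28 in centres and -0.40 on X. The inputs of the windows on IV, V and X were 3.34, 2.62 and 1.76 times the median and that on II 0.485 times. Over all 13 windows H3K9me3 of met-2 ran from -2.04 to 0.22 with a median of -1.07, and 10 of the 13 lay below the median of all kept windows. The highest was a window on X from 167501, at 0.22, where H3K9me2 of met-2 was -0.18. H3K9me2 of met-2 ran from -0.18 to 1.17 with a median of 0.77, and 2 of the 13 lay below the median of all kept windows. Over kept windows its medians were 0.02 in centres and -0.04 on X. Inputs of the 13 ran from 0.162 to 3.34 times the median.

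The other inputs were read at the same windows in a comparison added after the data were seen. Windows nearer the threshold cross it on smaller shifts, so the shares below do not show which windows moved most. Over the 5358 windows in domains, 98.6% stayed above 1 with the H3K9me2 input of met-2 and 85.0% with the input labelled set-25 of the H3K9me3 experiment. Over the 14248 enriched windows outside domains the shares were 94.6% and 71.0%, and over the 5839 enriched windows with a log2 ratio of at most 1.5 they were 85.9% and 50.7%. Taken as whole stretches, all 332 domains stayed above 1 with the former input and 301 with the latter. Called anew with the latter, domains numbered 233 over 2.04 Mb, while the share of enriched windows, 9.93%, stayed close to 10.3%. Across kept windows the counts of the input used had a Spearman rho of 0.72 with the former and 0.098 with the latter. Windows at the floor behaved alike on both sides of it. Those whose lowest input held 20 to 24 counts (781 windows) had a median log2 enrichment of -0.55 with 23.4% above 1. Those with 15 to 19 counts (792 windows, left out) had -0.54 with 24.0%. Both groups stood above all kept windows, where the median was -1.33 and the share 10.3%.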

How the data were processed

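The authors' deposited file gives raw counts for windows of 500 bp, with 1 column for each mark, strain and ChIP or input. Whole numbers and unequal column totals identify them as counts. Chromatin was fixed with 2% formalin and sonicated, per the labels' protocols. How reads were aligned, filtered for duplicates and counted, and on which genome build, is not stated in the labels or the file, and no column says whether it is 1 replicate or a sum. The last line was incomplete and left out, and X beyond 16493500 was not analysed here. Positions follow the file's own windows, 1-based. No genome of their build was at hand, so no gene is named and no sequence shown.

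Counts were scaled to column totals, and log2 ratios of windows used a pseudocount of 0.1 CPM. For domains, ChIP and input counts were summed without a pseudocount, with exact Clopper-Pearson 95% intervals of the ChIP share; amplified reads are not independent molecules. Domains are runs of at least 10 adjacent kept windows above 1. Named domains are the 5 longest, the 5 highest and the longest of each part of II to V and of X; those of I were counted only. Members, lists and definitions were chosen with earlier results of these data known. Domain detection was tested only on simulated counts, with domains of constant level, no window below the floor in them and the scale known. That test does not cover the choice of scale, uneven domains or edges at the floor. Python 3.11.15, pandas 2.3.3 and scipy 1.17.1 were used. Alternatives covered pseudocount, floor, threshold, scaling, input, window size, run definition and the width of arms.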

Additional observations from a re-analysis of the deposited data

How the results depend on the processing

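No paired analysis was possible because the table holds 1 column per group, and for the same reason no replicate could be left out. The share of enriched windows, 10.3%, was 4.81% at a log2 threshold of 2 and 23.8% with values centred on the median (-1.33). The share of enriched autosomal windows on arms, 93.5%, was 92.7% without the floor, 92.0% and 95.8% at thresholds of 0.5 and 2, 88.6% centred, 92.4% with the 1% most covered windows left out of the totals (which raised all values by 0.39), 93.0% with the input of the H3K9me3 experiment and 97.7% with arms as the outer 33.3%. Arms exceeded centres by 1.46 on average; the value was 1.31 with a pseudocount of 0.5 CPM, 1.47 with a floor of 50, 1.45 with none and likewise 1.45 with the floor on the other 3 inputs, 1.47 with the most covered windows left out of the totals, 1.29 with the input of the H3K9me3 experiment, 1.499 with that of met-2, 1.25 with arms of 33.3% and 1.498 in windows of 1 kb. Domain numbers depended most on definition. The 332 domains became 531 and 115 at thresholds of 0.5 and 2, 1003 centred, 535 in windows of 1 kb, and 1023 and 68 for runs of at least 5 and 20 windows. Their total, 2.68 Mb, became 4.43, 0.904, 9.39, 4.59, 4.89 and 0.986 Mb in the same order, and 4.25 Mb with runs joined across 1 window. The median length, 6.5 kb, was 6 kb at a threshold of 2, and 3.5 and 13.5 kb for runs of at least 5 and 20 windows, and it was 6.5 or 7 kb otherwise. The median distance, 24.5 kb, was 16 and 55.5 kb at thresholds of 0.5 and 2, 13 kb centred, 18.5 kb with the input of the H3K9me3 experiment, 18 kb in windows of 1 kb, 19 kb with joined runs, and 11 and 88.25 kb for runs of at least 5 and 20 windows. Domains above the threshold for H3K9me3 of met-2, 31, became 56 and 6 at 0.5 and 2, 91 centred, 11 with the input of the H3K9me3 experiment, and 61 and 11 for runs of at least 5 and 20 windows. The 18 named domains had a median log2 enrichment of 3.35, which was 3.14 with the input of the H3K9me3 experiment, 3.49 with that of met-2, 4.68 centred and 3.74 without the most covered windows in the totals; all 18 stayed above 0 in these 4 settings, and 15 stayed above 1 with the input of the H3K9me3 experiment, where those on II from 13508001, IV from 11974501 and V from 14760501 fell to 0.80, 0.67 and 0.33. Causes were not tested beyond what each setting changes by construction. Counting error weighs more on single windows than on domains. The median ChIP count was 41 over all kept windows, 329 over enriched windows and 8196.5 over domains.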
